A study of Mus musculus with 6 samples.

Results

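The NRF2 antioxidant genes examined here were 10 genes picked by name from the 54532 genes of the table: Nfe2l2, Keap1, Nqo1, Gclc, Gclm, Txnrd1, Srxn1, Slc7a11, Gsr and G6pdx. Each name matched a single row. RNA was taken from mouse bone marrow-derived macrophages (BMDMs) after co-culture with ID8, a mouse ovarian cancer cell line exposed beforehand to cisplatin (40 µM), a DNA-crosslinking platinum drug, or to phosphate-buffered saline (PBS). Each group held 3 libraries. The labels give the agent per library and the study's text places it on the tumour cells before the co-culture, so both groups of BMDMs met ID8 cells. The marrow came from young adult C57BL/6 mice, and per the study's methods the cells were grown in medium with serum and are also called monocytes there. Neither the length of the co-culture, nor a separation of ID8 cells from BMDMs before extraction, nor whether the 3 libraries of a group came from separate mice is stated, so p-values measure the spread between these libraries, which may be technical.

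NRF2, encoded by Nfe2l2, is a transcription factor that pairs with small Maf proteins on antioxidant response elements. KEAP1 holds NRF2 in the cytoplasm and hands it to a CUL3 ubiquitin ligase for degradation, until oxidants or electrophiles modify cysteines of KEAP1 and NRF2 accumulates. NRF2 activity is therefore set largely at the protein level, which RNA does not measure. Its target genes make glutathione, reduce thioredoxin and quinones and supply NADPH, and in macrophages the pathway is known for limiting oxidant damage and tempering inflammatory gene expression.

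In libraries labelled as BMDMs that also held ID8 markers, the 8 target genes of the list were higher with cisplatin. The genes of the regulator pair, Nfe2l2 and Keap1, were lower. These directions are those of the values as deposited: with the libraries scaled by their Y-linked genes, which moved the median of all genes to -0.83, only Slc7a11 and Gclm were higher at the adjusted p, Nqo1, Gsr and G6pdx were lower, and Gclc, Srxn1 and Txnrd1 did not pass. Slc7a11, which encodes the cystine carrier of the xCT antiporter, rose the furthest, from 29.3 ± 1.71 to 125 ± 4.30 FPKM (fragments scaled by gene length and sequencing depth, SD, n = 3 each), a ratio of the means of 4.29. The subunit genes of glutamate-cysteine ligase, Gclm and Gclc, rose 2.82 and 2.13 times, and Srxn1, the sulfiredoxin gene, rose 2.24 times. These 4 genes passed both thresholds, an adjusted p under 0.05 in limma and a change of at least 1 on the log2(FPKM + 1) scale, where 4.67% of the 13441 tested genes were past both in the upward direction. None of the 10 was lower past both thresholds, against 11.3% of tested genes. At the adjusted p alone, 8 of the 10 were higher and 2 lower, against 32.9% and 35.1% of tested genes. The 2 groups of libraries did not overlap for any of the 10, with 8 genes separated upward and 2 downward, but such separation was common, with 35.2% of tested genes separated upward and 37.2% downward.

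The promoters of the genes called higher, with those of Txnrd1 and of Nfe2l2 itself, are shown because NRF2 acts through antioxidant response elements. The promoter set used here held no entry for Gclc. The sequences are the 250 bases before a RefSeq transcript start on GRCm38.p6, written 5′ to 3′ along the gene, with matches to the letters TGACNNNGC or TGAGNNNGC, on either strand, in capitals. The window of Txnrd1 belongs to the second of 3 starts listed for it.
Slc7a11 (chr3:50443614-50443863, minus strand): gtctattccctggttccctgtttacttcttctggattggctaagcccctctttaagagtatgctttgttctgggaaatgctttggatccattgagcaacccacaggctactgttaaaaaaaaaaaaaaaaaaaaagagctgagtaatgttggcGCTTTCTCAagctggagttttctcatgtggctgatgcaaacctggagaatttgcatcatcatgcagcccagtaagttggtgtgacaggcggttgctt
Gclm (chr3:122245307-122245556, plus strand): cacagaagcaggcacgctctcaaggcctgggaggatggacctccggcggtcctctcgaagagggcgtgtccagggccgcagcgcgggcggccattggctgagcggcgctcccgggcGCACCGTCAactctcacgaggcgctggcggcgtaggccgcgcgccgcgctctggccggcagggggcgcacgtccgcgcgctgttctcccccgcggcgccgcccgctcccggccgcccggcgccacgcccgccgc
Srxn1 (chr2:152105274-152105523, plus strand): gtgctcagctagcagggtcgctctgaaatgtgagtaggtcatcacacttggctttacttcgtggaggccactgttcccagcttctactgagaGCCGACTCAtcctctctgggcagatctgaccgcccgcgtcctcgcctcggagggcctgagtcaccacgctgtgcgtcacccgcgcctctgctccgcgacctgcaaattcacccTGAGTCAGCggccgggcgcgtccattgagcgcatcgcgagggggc
Txnrd1 (chr10:82858956-82859205, plus strand): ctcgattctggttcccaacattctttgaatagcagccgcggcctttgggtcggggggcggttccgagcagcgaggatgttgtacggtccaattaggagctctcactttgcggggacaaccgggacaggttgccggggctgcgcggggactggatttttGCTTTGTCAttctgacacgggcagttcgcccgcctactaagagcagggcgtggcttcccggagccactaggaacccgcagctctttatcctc
Nfe2l2 (chr2:75704664-75704913, minus strand): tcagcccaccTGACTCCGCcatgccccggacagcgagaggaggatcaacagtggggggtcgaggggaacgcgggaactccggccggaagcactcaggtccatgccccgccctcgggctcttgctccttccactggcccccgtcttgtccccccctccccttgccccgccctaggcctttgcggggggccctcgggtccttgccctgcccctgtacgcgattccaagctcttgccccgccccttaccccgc

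In the promoter set used here, RefSeq promoters were found for 8 of the 10 genes, all but Gclc and Gsr. A match lay in 6 of these 8 genes and in 6 of their 10 windows, against 23.0% of all 32851 promoter windows of the same length and 25.7% of 27025 genes. The spelling TGAGNNNGC, in 14.4% of all windows, was found for Srxn1 and Slc7a11, and TGACNNNGC, in 10.2%, for Nfe2l2, Gclm, Txnrd1 and G6pdx. The match of Srxn1 nearest to its start, TGAGTCAGC, ended 36 bases before it, while the single match of Gclm ended 125 bases before the start and that of Nfe2l2 231 bases before. That match of Srxn1 also holds the letters TGAGTCA, which AP-1 factors can bind. The windows of Nqo1 and Keap1 and those of the other 2 starts of Txnrd1 held no match. A match is a run of letters and does not show that NRF2 binds there.

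The libraries held 15776238 to 17924686 reads each, as recovered from the FPKM values, and their composition differed between the groups. Although the libraries are labelled as BMDMs, they held ID8 markers. Of 12 tested ID8 and mesothelial markers 10 fell and 2 rose at the adjusted p, where 35.1% of all tested genes fell and 32.9% rose, and 8 fell past both thresholds, where 11.3% did. The summed level of the 20 genes of that list went from between 1316 and 1419 FPKM with PBS to between 252 and 272 FPKM with cisplatin. Krt19, the most abundant of them, changed by -3.50 on the log2 scale (limma, adjusted p = 7.18e-08) and Wt1 by -3.14 (limma, adjusted p = 5.39e-08), while Krt20 was listed at 0 in all libraries. All 15 macrophage markers had positive log2 fold changes, 14 of them at an adjusted p under 0.05, with a median of 0.92 (-0.057 under the Y-linked scaling described next), and none was at 0 in all libraries. Their summed level went from between 2470 and 2524 to between 5597 and 5800 FPKM, with Lyz2 the most abundant (log2 fold change 1.57, limma, adjusted p = 1.14e-07). With the Y-linked scaling Lyz2 was still higher (0.58, limma, adjusted p = 0.000167) and Cd68 was lower (-0.79, limma, adjusted p = 4.01e-06). None of the list was then past both thresholds in either direction, where 0.632% of tested genes were higher and 38.5% lower. Cd68 was named after its value was seen. The summed neutrophil markers, S100a9 the most abundant, went from between 4854 and 5013 to between 9085 and 9345 FPKM, 11 of 12 genes rising. Under the Y-linked scaling their median went from 1.66 to 0.69. The genes higher past both thresholds went from 8 to 2, where the share of all tested genes went from 4.67% to 0.632%. Those 2 were Mpo (1.66, limma, adjusted p = 9.45e-07) and Prtn3 (1.54, limma, adjusted p = 9.83e-07), while S100a9 was lower (-0.24, limma, adjusted p = 0.0141). Lymphocyte markers went from between 199 and 207 to between 447 and 458 FPKM, 7 of the 8 tested genes rising and Cd79b the most abundant (median 0.72, -0.10 under the Y-linked scaling), and the erythroid list, led by Hbb-bs, from between 66.6 and 70.6 to between 73.9 and 79.0 FPKM, with none of its 4 tested genes past the adjusted p. Bulk RNA cannot tell fewer cells of a type from less RNA per cell, and the part of these shifts in the changes of the NRF2 genes was not tested.

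Y-linked genes come from male cells only, and all 4 of those used here (Ddx3y, Eif2s3y, Kdm5d and Uty) were higher with cisplatin, with log2 fold changes from 0.55 to 1.15. Xist, read with them, fell from 42.7 ± 5.35 to 7.79 ± 0.19 FPKM (SD over 3 libraries, log2 fold change -2.31, limma, adjusted p = 8.79e-07). The study's methods give no sex for the marrow donors. Kdm5d and Uty were low with PBS, at means of 1.05 and 1.51 FPKM. There the pseudocount of the test, absent from the scaling factor, understates a change. When the libraries were scaled to equal geometric means of these 4 genes, the genes themselves did not become level, with Ddx3y at 0.23 and Eif2s3y at -0.25 (limma, adjusted p = 0.00675 and 0.00769), a disagreement wider than some values read from this scaling. The median log2 fold change of all tested genes moved from -0.0011 to -0.83. Slc7a11 alone was then higher past both thresholds (log2 fold change 1.08, limma, adjusted p = 1.04e-06), and Gclm was higher at the adjusted p alone (0.48, limma, adjusted p = 0.000159). Srxn1 (0.16, limma, adjusted p = 0.0672), Gclc (0.091, limma, adjusted p = 0.128) and Txnrd1 (-0.063, limma, adjusted p = 0.39) did not pass. Nfe2l2 and Keap1 were lower past both thresholds under this scaling. Of the 10 genes, 1 was higher and 2 lower past both thresholds, where 0.632% and 38.5% of tested genes were, and 2 were higher and 5 lower at the adjusted p alone, where 3.71% and 82.6% were. Measured from the shifted median of all genes, Slc7a11 lay 1.92 above it, Gclm 1.31, Srxn1 0.997, Gclc 0.92, Txnrd1 0.77, Nqo1 0.44, Gsr 0.26 and G6pdx 0.015 above it. Nfe2l2 and Keap1 lay on the other side of it, at -0.40 and -0.66.

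Of the regulator pair, Nfe2l2 (ENSMUSG00000015839, chromosome 2, 75675513 to 75704641 on GRCm38) stood at 105, 111 and 110 FPKM in the PBS libraries and at 96.7, 88.9 and 88.3 FPKM in the cisplatin libraries. The highest cisplatin library lay below the lowest PBS library, by a small margin relative to the level. On the log2(FPKM + 1) scale Nfe2l2 fell by 0.25 (SE 0.046, limma, adjusted p = 0.00243). Keap1 (ENSMUSG00000003308, chromosome 9, 21229730 to 21239361), the adaptor that marks NRF2 for degradation, stood at 19.6, 19.2 and 21.04 FPKM with PBS and at 12.9, 12.6 and 14.4 FPKM with cisplatin. Its groups did not overlap either, and it fell by 0.55 (SE 0.062, limma, adjusted p = 0.000209). Keap1 fell further than Nfe2l2, so the ratio of Nfe2l2 to Keap1 within a library, which does not depend on a factor common to all genes of a library, was 5.38, 5.78 and 5.21 with PBS and 7.51, 7.05 and 6.13 with cisplatin. Every cisplatin library had a higher ratio than every PBS library (6.90 ± 0.70 against 5.46 ± 0.29, SD, n = 3 each, two-sided exact permutation test, p = 0.1, the smallest p that 3 against 3 allows). The table's annotation places Gm24996 inside Nfe2l2 on the same strand and Gm16754 across Keap1 on the other strand.

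**Figure D1:**
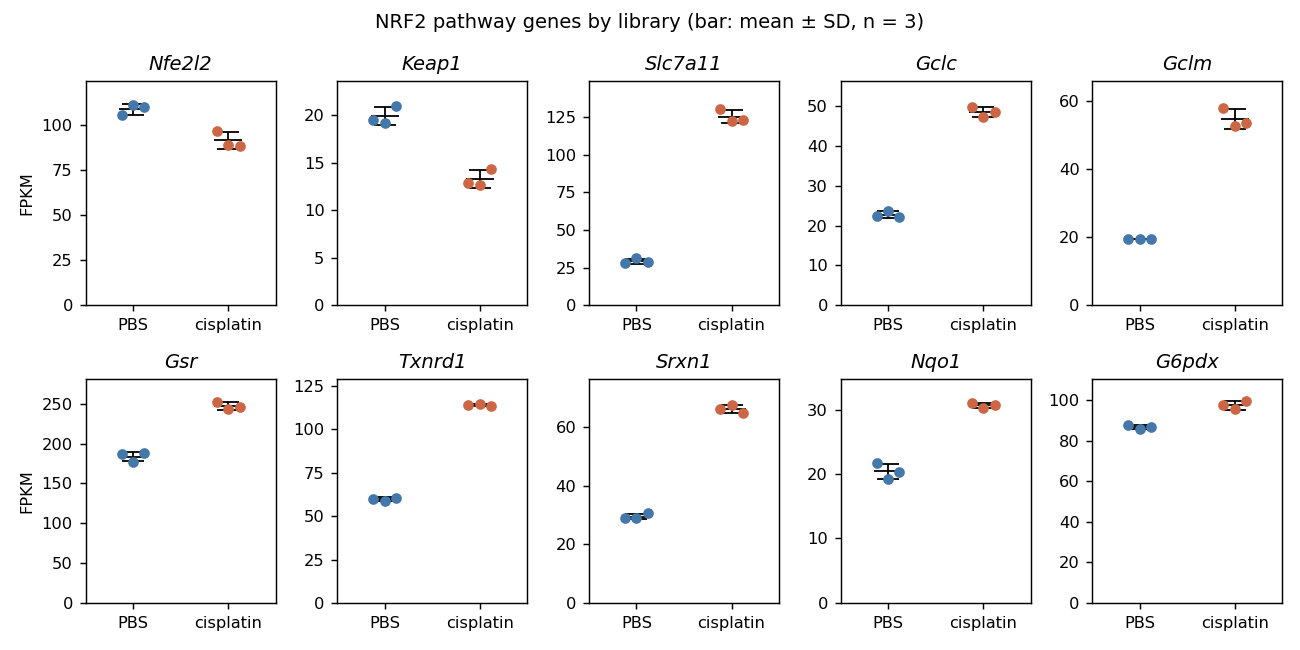
FPKM of the 10 NRF2 pathway genes (y axis of each panel, from 0) in the 3 PBS (blue) and 3 cisplatin (orange) libraries, with points for libraries and bars for the mean ± SD. Nfe2l2 and Keap1 sit lower with cisplatin and the other 8 genes higher, with no overlap of the groups in any panel, but under scaling by the Y-linked genes only Slc7a11 and Gclm are higher at the adjusted p, Nqo1, Gsr and G6pdx are lower, and Gclc, Srxn1 and Txnrd1 do not pass.

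The genes of glutathione supply came next. Slc7a11 (ENSMUSG00000027737, chromosome 3, 49892526 to 50443614), whose product brings in cystine in exchange for glutamate, stood at 28.1, 31.2 and 28.4 FPKM with PBS and at 130, 123 and 123 FPKM with cisplatin. The lowest cisplatin library was far above the highest PBS library, and the log2 fold change of 2.06 (SE 0.050, limma, adjusted p = 1.67e-07) ranked 47 among 13441 tested genes, counted from the largest rise. Between 6138 and 30871 reads per library lay behind these values. In the table, the listed span of Slc7a11 takes in 5 short predicted genes, each far below Slc7a11 in every library.

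Glutamate-cysteine ligase, the first and rate-limiting enzyme of glutathione synthesis, is made of a catalytic subunit (Gclc) and a modifier subunit (Gclm). Gclc (ENSMUSG00000032350, chromosome 9, 77754535 to 77794485) went from 22.3, 23.7 and 22.2 FPKM with PBS to 49.8, 47.2 and 48.4 FPKM with cisplatin, with a log2 fold change of 1.06 (SE 0.041, limma, adjusted p = 1.08e-06). The 3 PBS libraries of Gclm (ENSMUSG00000028124, chromosome 3, 122245557 to 122270732) were almost equal, at 19.3, 19.3 and 19.4 FPKM, while the cisplatin libraries stood at 57.9, 52.6 and 53.4 FPKM. Its log2 fold change was 1.45 (SE 0.045, limma, adjusted p = 4.19e-07). The groups were apart for both subunits, and the modifier subunit rose by more than the catalytic one. The ratio of Gclc to Gclm was 1.15, 1.22 and 1.14 in the PBS libraries and 0.859, 0.898 and 0.906 in the cisplatin libraries. It was thus above 1 in every PBS library and below 1 in every cisplatin library (1.17 ± 0.043 against 0.888 ± 0.025, SD, n = 3 each, two-sided exact permutation test, p = 0.1, the smallest possible).

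Gsr, which encodes the reductase that regenerates glutathione with NADPH (ENSMUSG00000031584, chromosome 8, 33652523 to 33698163), was the most abundant of the 10 genes in both groups. It stood at 186, 177 and 188 FPKM with PBS and at 252, 243 and 247 FPKM with cisplatin. The groups did not overlap, but the change as deposited was smaller than for Slc7a11, Gclc and Gclm (log2 fold change 0.43, SE 0.036, limma, adjusted p = 4.51e-05) and was below the fold change threshold. Under the Y-linked scaling the change of Gsr was larger in size than those of Gclc and Gclm (-0.57 against 0.091 and 0.48). The annotation places Gm24727 inside Gsr, and Gm17494 and Gm6061 overlap Gclm.

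**Figure D2:**
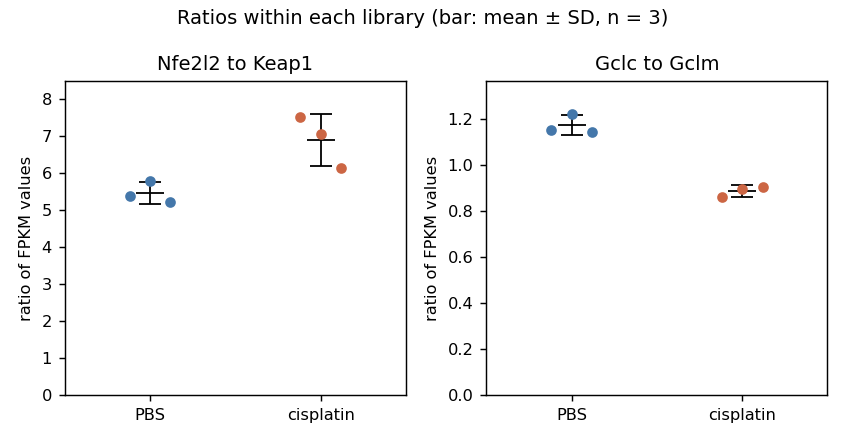
Ratio of Nfe2l2 to Keap1 (left) and of Gclc to Gclm (right), both of FPKM values within a library (y axes from 0), in the 3 PBS (blue) and 3 cisplatin (orange) libraries, with bars for the mean ± SD. The ratio of Nfe2l2 to Keap1 was higher with cisplatin (6.90 against 5.46) and that of Gclc to Gclm lower (0.888 against 1.17), with no overlap of the groups.

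Of the thioredoxin branch, Txnrd1 encodes the cytosolic reductase that keeps thioredoxin reduced, and Srxn1 encodes sulfiredoxin, which restores overoxidised peroxiredoxins. Txnrd1 (ENSMUSG00000020250, chromosome 10, 82833951 to 82897712) stood at 60.0, 58.5 and 60.7 FPKM with PBS and at 114, 115 and 114 FPKM with cisplatin. Its libraries were close within each group and the groups did not overlap. The log2 fold change of 0.92 (SE 0.030, limma, adjusted p = 5.16e-07) was just short of the threshold of 1 and passed it with limma voom on the recovered reads (1.02) and with scaling by total reads (1.01). Txnrd1 overlaps Eid3 and 2 predicted genes in the annotation. Srxn1 (ENSMUSG00000032802, chromosome 2, 152105516 to 152111376) went from 29.0, 28.8 and 30.6 FPKM to 66.1, 67.5 and 64.7 FPKM, with a log2 fold change of 1.14 (SE 0.038, limma, adjusted p = 5.96e-07) and no gene overlapping it.

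Nqo1, a quinone reductase gene often used as a readout of NRF2 activity, changed less than Slc7a11, Gclc and Gclm in the values as deposited. Under the Y-linked scaling its change was larger in size than that of Gclc (-0.39 against 0.091). Nqo1 (ENSMUSG00000003849, chromosome 8, 107388225 to 107403206) stood at 21.6, 19.3 and 20.3 FPKM with PBS and at 31.0, 30.3 and 30.6 FPKM with cisplatin. Every cisplatin library was above every PBS library, with a log2 fold change of 0.57 (SE 0.048, limma, adjusted p = 5.07e-05). It was the gene of the list with the fewest reads, from 466 to 820 per library. G6pdx encodes the X-linked glucose-6-phosphate dehydrogenase, which makes NADPH in the first step of the pentose phosphate pathway (ENSMUSG00000031400, chromosome X, 74409483 to 74429194). It stood at 87.6, 85.7 and 86.8 FPKM with PBS and at 97.6, 95.5 and 99.9 FPKM with cisplatin. With the values as deposited this was the smallest change of the 10 in size (log2 fold change 0.17, SE 0.032, limma, adjusted p = 0.00254), and 62.8% of all tested genes had a lower log2 fold change. With limma voom Nfe2l2 changed less (-0.16 against 0.26 for G6pdx), as with scaling by total reads, and under the Y-linked scaling Txnrd1 changed least (-0.063 against -0.82). G6pdx overlaps Ikbkg on the other strand, and its near-identical autosomal copy G6pd2 was listed at 0 in all 6 libraries.

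The order of the levels differed between the groups. With PBS, the means ran from Gsr (184 FPKM) through Nfe2l2 (109), G6pdx (86.7) and Txnrd1 (59.7) to Srxn1 (29.4) and Slc7a11 (29.3), whose libraries overlapped. Gclc (22.7) stood above Nqo1 (20.4), Keap1 (19.9) and Gclm (19.4), which overlapped with one another. With cisplatin, Slc7a11 (125 FPKM) came after Gsr (247) and before Txnrd1 (114), and the libraries of G6pdx (97.7) and Nfe2l2 (91.3) overlapped. Below them stood Srxn1 (66.1), Gclm (54.6) and Gclc (48.5), then Nqo1 (30.7), and Keap1 (13.3) was the lowest.

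**Figure D3:**
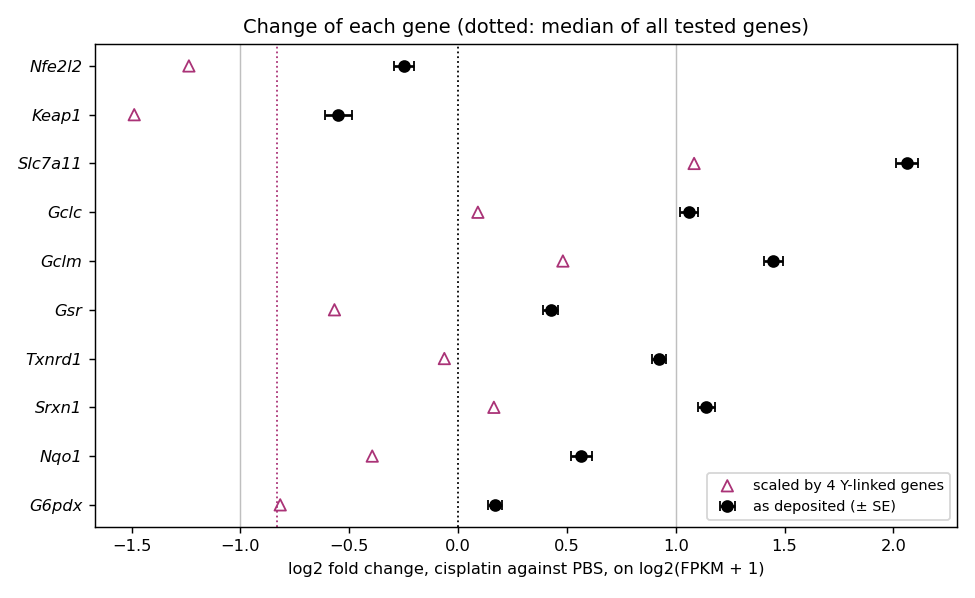
Log2 fold change of each gene, cisplatin against PBS, on log2(FPKM + 1) (x axis), from the values as deposited (black, ± SE) and with the geometric mean of 4 Y-linked genes made equal across libraries (open triangles), with grey lines at a change of 1 and dotted lines at the median of all 13441 tested genes. As deposited, Slc7a11 lies at 2.06 and Keap1 at -0.55, and under the Y-linked scaling, which moves the median of all genes to -0.83, Nqo1, Gsr and G6pdx lie below 0 and Gclc, Srxn1 and Txnrd1 do not pass the test.

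Partners and regulators of NRF2 included genes that rose and genes that fell. Of 19 genes, all of them tested, 8 rose and 7 fell at the adjusted p, where 32.9% and 35.1% of tested genes did, and the median was 0.013 against -0.0011 over all tested genes (-0.91 and -0.83 under the Y-linked scaling). The small Maf genes, whose products pair with NRF2, went different ways. Mafg rose from 26.6 ± 0.15 to 51.1 ± 1.03 FPKM (SD over 3 libraries, log2 fold change 0.92, limma, adjusted p = 7.58e-07), while Maff fell from 31.4 ± 1.57 to 16.1 ± 2.03 FPKM (SD over 3 libraries, log2 fold change -0.93, limma, adjusted p = 0.0001). Mafk changed by less (log2 fold change 0.21, limma, adjusted p = 0.0124). Bach1, which encodes a heme-sensitive repressor that competes for the same elements, rose a little (log2 fold change 0.32, limma, adjusted p = 0.00102). The largest rise was that of Sqstm1, whose product p62 can bind KEAP1, from 194 ± 7.19 to 394 ± 14.96 FPKM (SD over 3 libraries, log2 fold change 1.02, limma, adjusted p = 1.79e-06). Nfe2l3, a relative of Nfe2l2, fell by 1.54 (limma, adjusted p = 4.54e-05), and the ligase gene Cul3 did not pass the test (log2 fold change 0.057, limma, adjusted p = 0.332). Sqstm1 lost its call under quantile normalisation and without PBS replicate 2, and under the Y-linked scaling 7 of the 19 genes of this list were lower past both thresholds, where 38.5% of tested genes were, and none higher, with Mafg at -0.056 (limma, adjusted p = 0.422) and both Mafk (-0.73) and Bach1 (-0.65) lower. Cul3 was named after its value was seen.

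Other genes known as NRF2 targets passed the test in both directions. Of 39 in that list 34 were tested, and 12 rose and 15 fell at the adjusted p, where 32.9% and 35.1% of tested genes did. Past both thresholds 3 were higher and 9 lower, where 4.67% and 11.3% of tested genes were. The median was 0.025 (-0.93 under the Y-linked scaling). The 3 higher genes, named after their values were seen, were Osgin1, an oxidative stress-induced growth inhibitor gene (15.3 ± 0.45 to 40.1 ± 2.19 FPKM), Hmox1, which encodes heme oxygenase 1 (332 ± 7.81 to 725 ± 2.52 FPKM), and the glutathione transferase gene Gstm1 (148 ± 3.60 to 311 ± 18.5 FPKM, SD, n = 3 each). Their log2 fold changes were 1.33, 1.12 and 1.06 (limma, adjusted p = 9.25e-07, 2.68e-07 and 2.44e-06). The largest falls were those of Me1, the cytosolic malic enzyme gene (178 ± 4.67 to 26.8 ± 0.43 FPKM), and of Gsta4, a glutathione transferase gene (220 ± 8.52 to 36.0 ± 1.20 FPKM, SD, n = 3 each), with log2 fold changes of -2.69 and -2.58 (limma, adjusted p = 3.21e-08 and 6.04e-08). Gsta1 (log2 fold change -1.99, limma, adjusted p = 0.00149) and the aldehyde dehydrogenase gene Aldh3a1 (-1.67, limma, adjusted p = 3.54e-07) followed. The glutathione transferase genes have close relatives with which they may share reads. The summed ID8 and mesothelial markers fell over the same libraries, as given above, and whether these falls follow them was not tested. Under the Y-linked scaling none of this list was higher and 16 of 34 were lower past both thresholds, against 38.5% of all tested genes, with Osgin1 at 0.37 (limma, adjusted p = 0.00177), Hmox1 at 0.13 (limma, adjusted p = 0.131) and Gstm1 at 0.068 (limma, adjusted p = 0.293).

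**Figure D4:**
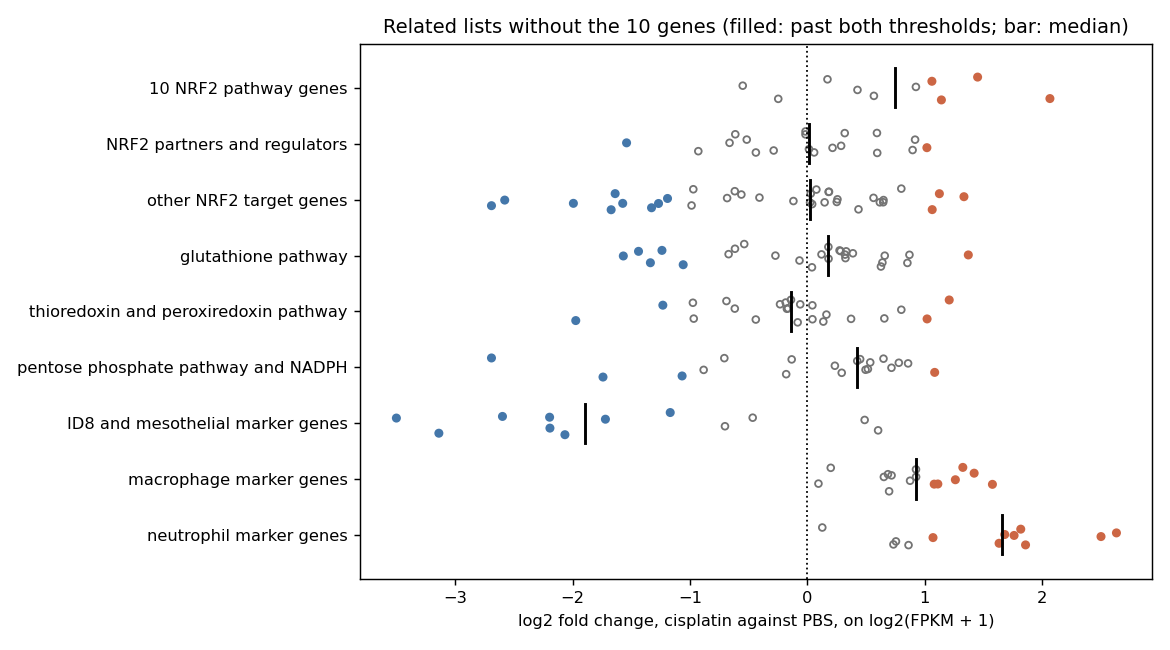
Log2 fold change, cisplatin against PBS, on log2(FPKM + 1) (x axis), of the tested genes in each list (rows), with the 10 NRF2 pathway genes in a row of their own and left out of the others, filled points for genes past both thresholds (orange higher, blue lower), vertical bars for medians and a dotted line for the median of all tested genes. The other NRF2 targets spread to both sides (median 0.025), while ID8 and mesothelial markers lie mostly to the left (median -1.89) and macrophage markers to the right (median 0.92, which turns to -0.057 under scaling by the Y-linked genes).

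In the glutathione pathway list, apart from its 4 genes described above, 26 genes were tested, of which 12 rose and 9 fell at the adjusted p, where 32.9% and 35.1% of tested genes did. Past both thresholds 1 was higher and 5 were lower, where 4.67% and 11.3% of tested genes were. The median was 0.18, and for the whole list it turned from 0.28 to -0.59 under the Y-linked scaling, where past both thresholds 9 of its 30 tested genes were lower, against 38.5% of all, and only Slc7a11 was higher. The single higher gene was Slc3a2, which encodes the heavy chain that partners the Slc7a11 carrier, and it was named after its value was seen. Its call was lost under the Y-linked scaling (0.38, limma, adjusted p = 0.0019). It went from 58.3 ± 1.59 to 152 ± 7.07 FPKM (SD over 3 libraries, log2 fold change 1.37, limma, adjusted p = 4.95e-07). Among the falls were Oplah (log2 fold change -1.57, limma, adjusted p = 4.54e-06), the gene of 5-oxoprolinase, and Chac2 (-1.44, limma, adjusted p = 9.34e-06), the gene of a glutathione-degrading enzyme. Gss, the glutathione synthetase gene that acts after glutamate-cysteine ligase, did not pass (6.12 ± 0.57 against 5.78 ± 0.22 FPKM, SD over 3 libraries, log2 fold change -0.068, limma, adjusted p = 0.434). It was named after its value was seen.

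Of the thioredoxin and peroxiredoxin list without Txnrd1 and Srxn1, 5 of 23 tested genes rose and 9 fell at the adjusted p, where 32.9% and 35.1% of tested genes did. Past both thresholds 2 were higher and 2 lower, against 4.67% and 11.3% of all. The higher pair was Prdx6, which went from 49.5 ± 1.37 to 116 ± 5.20 FPKM (SD over 3 libraries, log2 fold change 1.21, limma, adjusted p = 7.93e-07), and Msra, a methionine sulfoxide reductase gene (log2 fold change 1.02, limma, adjusted p = 8.45e-06), the latter named after its value was seen. The lower pair was Msrb3 (-1.97, limma, adjusted p = 9.09e-07) and Txnip, which encodes an inhibitor of thioredoxin and went from 179 ± 4.22 to 75.5 ± 2.47 FPKM (SD over 3 libraries, log2 fold change -1.23, limma, adjusted p = 3.79e-07). Thioredoxin itself, Txn1, was lower (479 ± 12.5 to 312 ± 7.64 FPKM, SD over 3 libraries, log2 fold change -0.62, limma, adjusted p = 7.06e-06), while the reductase gene Txnrd1 was higher. The mitochondrial reductase gene Txnrd2 did not pass (log2 fold change 0.042, limma, adjusted p = 0.734). Txn1 and Txnrd2 were named after their values were seen. Under the Y-linked scaling no gene of the whole list was higher and 12 of 25 were lower past both thresholds, against 38.5% of all tested genes, and the calls of Prdx6 (0.22, limma, adjusted p = 0.00361) and Msra (0.14, limma, adjusted p = 0.0868) were lost.

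In the pentose phosphate and NADPH list, G6pdx left out, 12 of 19 tested genes rose and 6 fell at the adjusted p, where 32.9% and 35.1% of tested genes did. The median was 0.42, while for the whole list it went from 0.36 to -0.61 under the Y-linked scaling. Past both thresholds 1 was higher and 3 were lower, against 4.67% and 11.3% of all. The higher gene was Mthfd2, of mitochondrial folate metabolism (log2 fold change 1.08, limma, adjusted p = 2.59e-06). The lower genes were the malic enzyme genes Me1 and Me2 (-1.74 for Me2, limma, adjusted p = 1.04e-07) and Nadk2, a mitochondrial NAD kinase gene (-1.07, limma, adjusted p = 3.13e-06). Pgd, whose product makes NADPH later in the same pathway, rose, from 73.1 ± 3.02 to 133 ± 4.18 FPKM (SD over 3 libraries, log2 fold change 0.86, limma, adjusted p = 3.78e-06), and Tkt, the transketolase gene, from 53.8 ± 1.90 to 77.3 ± 3.58 FPKM (SD over 3 libraries, log2 fold change 0.51, limma, adjusted p = 6.82e-05). Both were named after their values were seen. Under the Y-linked scaling no gene of the whole list was higher and 7 of 20 were lower past both thresholds, against 38.5% of all tested genes, with Mthfd2 at 0.13 (limma, adjusted p = 0.137), Pgd at -0.13 (limma, adjusted p = 0.163) and Tkt lower, at -0.47 (limma, adjusted p = 0.00117).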

How the data were processed

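Libraries of poly-T selected RNA from BMDM and ID8 co-culture were compared, 3 per group, with groups and replicate numbers from the sample labels. The authors deposited FPKM values for 54532 genes. Their methods name quality filtering, LifeScope for alignment and counting, and DESeq2 for testing, whereas the submitters' processing notes list fastp, HISAT2 2.0.5, featureCounts 1.5.0-p3 and mm10. Use of strand in counting is not given in the sources used here. The coordinates of all 10 genes equal those of GENCODE M21 (GRCm38).

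Genes with at least 1 FPKM in at least 3 libraries (13441) were tested as log2(FPKM + 1) in limma 3.58.1 (R 4.3.3, lmFit, eBayes with a trend, group as the only term), with Benjamini-Hochberg adjustment over all of them. A pseudocount of 1 understates the change of low genes. Ratios were tested in scipy 1.17.1. Multiplied by gene length, all values worth fewer than 200 reads were whole multiples of 1 read (within 0.05), giving 15776238 to 17924686 reads per library. No 2 libraries were identical.

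The 10 genes, the 12 other lists and the tests were chosen with earlier results of these data known. All 10 were named, along with at most 4 genes per list with the largest changes past both thresholds, the most abundant gene of each marker list, the small Maf genes and Bach1. Other names are marked as chosen after their values were seen, as is Krt20, listed at 0. The procedure was tested on simulated data. Alternatives are described in the closing section.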

Additional observations from a re-analysis of the deposited data

How the results depend on the processing

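The 10 genes were recomputed with median-of-ratios, TPM, quantile, Y-linked and total-read scaling (the last chosen after seeing the data), a smaller pseudocount (0.1), filters of 5 FPKM and of none, limma voom, eBayes without a trend, a replicate block, and without each library. Outside the Y-linked scaling, all 10 genes kept their direction and an adjusted p under 0.05 in these 16 settings, with Slc7a11 between 2.04 and 2.19 and G6pdx between 0.15 and 0.26, and 4 or 5 were higher past both thresholds. With the replicate number as a block, 4 were higher past both thresholds and Slc7a11 stayed at 2.06, while same-numbered libraries did not deviate together (correlations of -0.104, -0.086 and -0.024). Scaling by the Y-linked genes left 1 gene higher and 2 lower past both thresholds, where 0.632% and 38.5% of tested genes were. It left 2 higher and 5 lower at the adjusted p alone, where 3.71% and 82.6% were. It turned Nqo1 (-0.39), Gsr (-0.57) and G6pdx (-0.82) lower, left Txnrd1 (-0.063) short of the test and, with the 10 genes kept in the lists they belong to, made negative the medians for partners (-0.91), other NRF2 targets (-0.93), glutathione (-0.59), pentose phosphate (-0.61), superoxide dismutases (-0.86), ATF4 (-0.77), macrophage (-0.057), lymphocyte (-0.10) and erythroid genes (-0.69). It shifted the median of all genes to -0.83. Quantile normalisation moved the median of all genes to 0.10 and turned the thioredoxin median from -0.083 to 0.023. Without each library in turn, the median of the partners ran from -0.0052 to 0.031 and that of the other targets from -0.027 to 0.049. All genes called past both thresholds numbered 628 higher and 1514 lower, against 973 and 1981 with the smaller pseudocount, 1227 and 1861 with voom, where 39.7% of calls were higher in place of 29.3%, and 85 and 5181 with the Y-linked scaling. Quantile normalisation also gave more upward calls (39.3%), and so did total reads (35.7%). The cause was not tested. With 3 libraries per group the exact permutation test of a ratio cannot reach a p of 0.05.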

Other observations

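Slc7a11 and Slc3a2 are also known targets of ATF4, the transcription factor of the integrated stress response. Of 23 tested genes of the ATF4 list 12 rose and 7 fell at the adjusted p, where 32.9% and 35.1% of all tested genes did. Past both thresholds 3 were higher and 2 lower, where 4.67% and 11.3% were, and the median was 0.16 (-0.77 under scaling by the Y-linked genes, where none was higher and 7 were lower past both thresholds, against 38.5% of all). Atf4 went from 77.9 ± 3.04 to 148 ± 1.99 FPKM (SD over 3 libraries, log2 fold change 0.92, limma, adjusted p = 1.52e-06) and Atf5, which also belongs to this response, from 11.0 ± 0.061 to 37.0 ± 0.28 FPKM (SD over 3 libraries, log2 fold change 1.66, limma, adjusted p = 9.06e-08). Under that scaling Atf4 stood at -0.074 (limma, adjusted p = 0.204) and Atf5 at 0.71, short of the fold change threshold. Ddit4 (log2 fold change -2.17, limma, adjusted p = 5.62e-06) and Nupr1 (-1.40, limma, adjusted p = 4.98e-06) fell, and Asns, the asparagine synthetase gene, did not pass (0.056, limma, adjusted p = 0.368). Atf4 and Asns were named after their values were seen.

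Among enzymes that remove superoxide and peroxide, the extracellular dismutase gene Sod3 fell from 22.1 ± 1.57 to 7.42 ± 0.18 FPKM (SD over 3 libraries, log2 fold change -1.46, limma, adjusted p = 1.35e-06). Sod2, of mitochondria, went from 52.8 ± 1.40 to 68.4 ± 0.46 FPKM and the catalase gene Cat from 48.9 ± 1.62 to 65.6 ± 2.75 FPKM (SD, n = 3 each), both higher at the adjusted p but short of the fold change threshold, and both lower under scaling by the Y-linked genes (-0.61 and -0.57, with adjusted p = 3.95e-05 and 3.87e-05 in limma). That scaling left none of the 4 genes of this list higher and 2 lower past both thresholds, where 0.632% and 38.5% of tested genes were. Sod1 did not pass (log2 fold change -0.15, limma, adjusted p = 0.111). Sod1, Sod2 and Cat were named after their values were seen.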
